A study of Mus musculus with 6 samples.

Results

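The genes described here are the C/EBP transcription factors Cebpa, Cebpb, Cebpd, Cebpe and Ddit3 together with the Tribbles pseudokinases Trib1 and Trib2, 7 genes of 19937 measured. They were taken by name, as every probe set of the array whose annotation gave exactly one gene symbol and that symbol was in the list, and each had 1 probe set of 34760. C/EBP factors carry a basic region that contacts DNA and a leucine zipper through which they pair with each other and with related factors. C/EBPα starts the granulocyte and monocyte programme in early myeloid progenitors and restrains division, C/EBPβ takes a larger part when granulocyte production is driven by infection or cytokines, C/EBPδ is induced by inflammation, and C/EBPε acts late in granulocyte maturation. CHOP, the product of Ddit3, pairs with C/EBP factors and alters their DNA binding under endoplasmic reticulum stress. Trib1 and Trib2 bring C/EBPα to the ubiquitin ligase COP1 for degradation, so they act on the protein and not on the transcript measured here.

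PreGMs, progenitors that come before the granulocyte-macrophage stage, were sorted from bone marrow of female C57BL/6 mice, and RNA from each sample (20 ng) was amplified, labelled and hybridised to 1 Affymetrix array. One group of 3 arrays was labelled Cebpa flox/flox and the other group of 3 Cebpa flox/flox;Mx1Cre, with 3 mice per genotype per the design text. All 6 mice carried the floxed Cebpa alleles and all had received pIC, a double-stranded RNA that induces interferon, 18 days before sorting, so by the labels the groups differed in the Cre transgene alone. Ages are not stated in these sources. The Mx1 promoter answers interferon in many cell types, so recombination after pIC is not restricted to PreGMs, and a group with Mx1Cre but without floxed Cebpa was not analysed here. The sort kept cells that were lineage-negative, Sca1-negative and Kit-positive, and that lacked CD150, CD41, FcγRII and endoglin.

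Kit, the antigen selected for, read 10.46 ± 0.090 in the flox/flox arrays and 10.61 ± 0.084 in the Mx1Cre arrays (log2 values, SD, n = 3 each), well above the upper quartile of gene levels, 8.07. Slamf1, which encodes the excluded CD150, read 5.46 and 5.29, below the lower quartile of 5.63, whereas Itga2b, Eng and Fcgr2b, which encode CD41, endoglin and FcγRIIb, read between 6.74 and 7.95 in both groups, above the median of 6.64. Fcgr2b was higher in the Mx1Cre arrays by 0.43 log2 units (limma adjusted p = 0.0410). Fcgr3, which encodes the related receptor FcγRIII, went the other way, from 8.14 to 7.09, a difference of -1.04 log2 units (limma adjusted p = 0.00970), and its groups did not overlap. Array values correlated across genes at 0.992 or more within a group and at 0.984 to 0.990 between groups.

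Cebpa, the gene targeted by the deletion, went against the genotype labels. Its log2 values were 6.93, 6.71 and 6.85 in the flox/flox arrays (replicates 1, 2 and 3) and 8.71, 9.31 and 8.98 in the arrays labelled Mx1Cre. The groups lay far apart, with the lowest Mx1Cre array above every flox/flox array. The difference was 2.17 ± 0.14 log2 units (SE, 95% interval 1.86 to 2.49), or 4.50-fold, towards the Mx1Cre label (limma adjusted p = 2.65e-05). A permutation test over the 6 arrays (exact, two-sided) returned p = 0.1, and no smaller value is possible with 3 arrays a group. Where the probes lie in the gene was not examined, so whether they read the deleted part is unknown. Directions throughout are those of the deposited labels and would all turn with an exchange of the group labels.

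**Figure D1:**
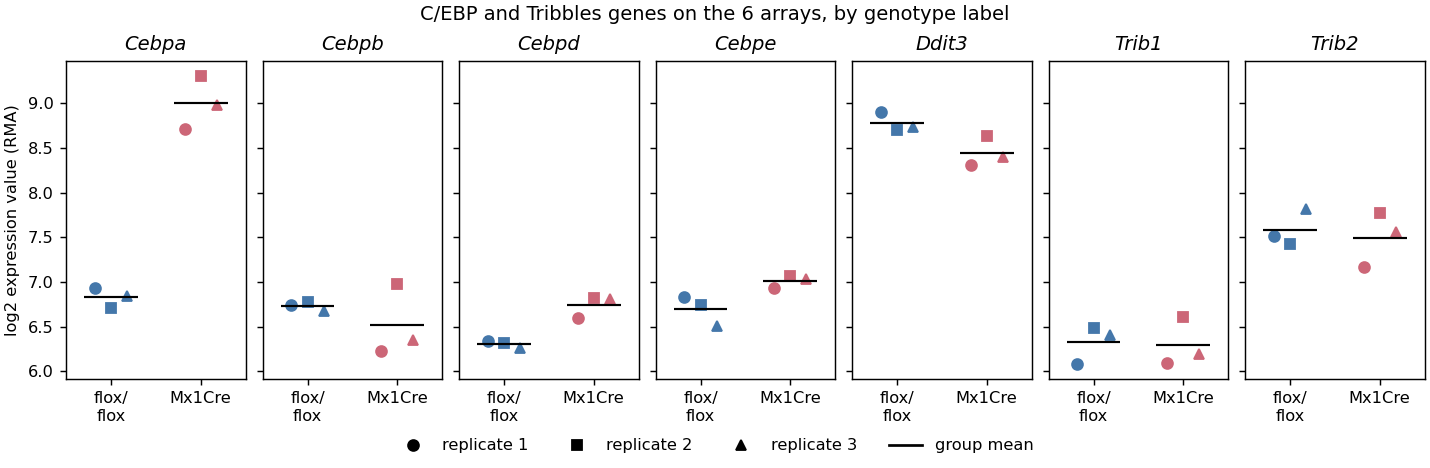
RMA log2 expression values of the 7 genes on each of the 6 arrays (y axis), by genotype label (x axis); marker shapes are replicate numbers and bars are group means. Cebpa lies near 6.8 in the flox/flox arrays and between 8.71 and 9.31 in those labelled Mx1Cre, whereas Cebpb, Trib1 and Trib2 overlap between the groups.

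Of the 7 genes, 2 (Cebpa and Cebpd) were higher in the Mx1Cre arrays, 0 were lower and 5 did not pass at an adjusted p under 0.05 with limma fitted over all genes. Over all 19937 genes 4.91% passed in either direction, 2.63% higher and 2.28% lower. For 4 of the 7 genes the groups were fully separated (Cebpa, Cebpd, Cebpe and Ddit3), as they were for 21.6% of all genes. At an unadjusted p under 0.05 Cebpe (0.0126, higher) and Ddit3 (0.0117, lower) would be added, a threshold that 16.4% of all genes met. The median difference over all genes was -0.01 log2 units.

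The start regions of 3 of these genes are printed because Cebpa had the largest change of the family and Cebpb and Ddit3, which did not pass, are the other family members with a sequence in the RefSeq table used, which held 4 of the 7 genes. Each window runs from 250 bases before the annotated start to 50 after it, and capitals mark matches, on either strand, to the TATA box, to the CCAAT box that gave the family its name, and to an AP-1 element, whose letters are spelled out after the sequences.
Cebpa (GRCm38.p6, chr7:35119043-35119342, plus strand): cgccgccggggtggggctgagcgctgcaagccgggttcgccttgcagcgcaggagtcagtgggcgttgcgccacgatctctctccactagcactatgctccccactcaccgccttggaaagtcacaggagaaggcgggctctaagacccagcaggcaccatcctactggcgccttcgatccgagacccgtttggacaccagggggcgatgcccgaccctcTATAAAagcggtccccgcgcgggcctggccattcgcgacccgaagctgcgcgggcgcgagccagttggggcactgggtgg
Cebpb (GRCm38.p6, chr2:167688665-167688964, plus strand): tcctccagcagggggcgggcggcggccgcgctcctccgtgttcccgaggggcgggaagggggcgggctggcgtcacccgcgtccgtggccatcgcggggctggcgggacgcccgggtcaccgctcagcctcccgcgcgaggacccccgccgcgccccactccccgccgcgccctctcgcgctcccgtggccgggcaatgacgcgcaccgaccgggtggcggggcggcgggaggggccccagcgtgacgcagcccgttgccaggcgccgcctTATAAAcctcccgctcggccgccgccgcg
Ddit3 (GRCm38.p6, chr10:127290543-127290842, plus strand): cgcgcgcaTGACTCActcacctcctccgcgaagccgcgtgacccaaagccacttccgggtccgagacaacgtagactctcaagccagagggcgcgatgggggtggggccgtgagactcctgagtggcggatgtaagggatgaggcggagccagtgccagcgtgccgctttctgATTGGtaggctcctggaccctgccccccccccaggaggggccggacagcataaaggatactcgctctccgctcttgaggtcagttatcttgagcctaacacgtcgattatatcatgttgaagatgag

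The Cebpa window held TATAAA from base -30 relative to the annotated start, and the Cebpb window held it from base 22 after the start. TATAAA occurred in 13.6% of all 32851 RefSeq windows of this length. The Ddit3 window held TGACTCA from base -242, found in 5.2% of windows, and CCAAT on the opposite strand from base -77, found in 37.4%. The palindrome-like C/EBP element TTGCNNAA, present in 10.8% of windows, was searched on both strands and matched none of the 4 windows, Trib2 included. Their GC content was 60.7% to 80.7%, against a median of 52.7% over all windows. A match is a run of letters and was not tested for binding. Sites that depart from these exact letters were not searched for, so a window without a match may still hold one.

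Among the other activating family members, Cebpd rose modestly. Cebpd, induced by inflammatory signals, read 6.34, 6.32 and 6.26 in the flox/flox arrays and 6.59, 6.82 and 6.81 in the Mx1Cre arrays. The groups did not overlap, and both lay near the median level of all genes. The difference was 0.44 ± 0.094 log2 units (SE, 95% interval 0.23 to 0.65), 1.35-fold, with a limma adjusted p of 0.0275. The call was lost without any of the flox/flox arrays 1, 2 and 3 (adjusted p 0.0734, 0.0678 and 0.101) and without Mx1Cre replicates 2 and 3 (0.0872 and 0.118), and it held without Mx1Cre replicate 1 (0.0157). It was also lost with all 34760 probe sets in the fit (0.127). The difference itself stayed between 0.40 and 0.51 when 1 array was left out.

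Cebpe, the factor of late granulocyte maturation, read 6.83, 6.75 and 6.51 in the flox/flox arrays and 6.93, 7.07 and 7.04 in the Mx1Cre arrays. All 3 Mx1Cre arrays lay above all 3 flox/flox arrays, the nearest pair being 6.93 and 6.83. The difference of 0.32 ± 0.10 log2 units (SE, 95% interval 0.084 to 0.55) did not pass after adjustment over all genes (limma adjusted p = 0.140).

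Cebpb, the factor of demand-driven granulopoiesis, read 6.75, 6.78 and 6.68 in the flox/flox arrays and 6.22, 6.98 and 6.36 in the Mx1Cre arrays. Mx1Cre replicate 2 was the highest of the 6 arrays and the other 2 Mx1Cre arrays were the lowest. The difference of -0.21 ± 0.17 log2 units (SE, 95% interval -0.59 to 0.16) did not pass (limma adjusted p = 0.627). Without Mx1Cre replicate 2 it was -0.44 and passed narrowly, at a limma adjusted p of 0.0498, the lowest of its alternatives, which reached 0.883. The residual spread of Cebpb, an SD of 0.29 within groups, was above that of 96.9% of genes.

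Ddit3, which encodes the stress-induced partner CHOP, read 8.90, 8.70 and 8.73 in the flox/flox arrays and 8.31, 8.63 and 8.40 in the Mx1Cre arrays. All 3 Mx1Cre arrays lay below the flox/flox arrays, the nearest pair being 8.63 and 8.70. The difference of -0.33 ± 0.11 log2 units (SE, 95% interval -0.57 to -0.091) did not pass (limma adjusted p = 0.134).

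The Tribbles genes showed no difference beyond their spread. Trib1, the pseudokinase best known for directing C/EBPα to COP1, read 6.08, 6.49 and 6.41 in the flox/flox arrays and 6.09, 6.61 and 6.19 in the Mx1Cre arrays, with a difference of -0.03 ± 0.15 log2 units (SE, limma adjusted p = 0.966). Trib2, a close relative that also lowers C/EBPα protein and can drive myeloid leukaemia in mice, read 7.52, 7.42 and 7.82 against 7.17, 7.77 and 7.56, with a difference of -0.09 ± 0.16 log2 units (SE, limma adjusted p = 0.869). Both groups spanned much the same range for each gene. The 95% intervals, -0.36 to 0.30 for Trib1 and -0.44 to 0.26 for Trib2, leave room for changes of moderate size either way, so these data do not show that the levels were equal. Within-group spread was wide for both, with residual SDs of 0.25 and 0.26 against a median of 0.12 over all genes.

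**Figure D2:**
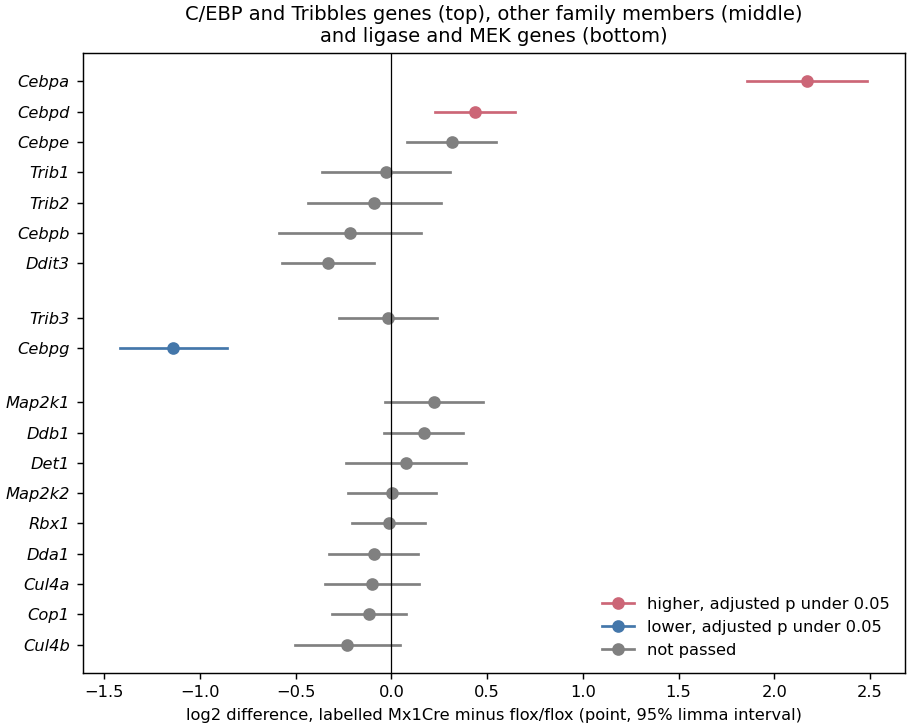
Difference between the arrays labelled Mx1Cre and flox/flox (x axis, log2 units) for the 7 genes (top), for Trib3 and Cebpg (middle) and for genes of the COP1 ligase and MEK (bottom); points are limma estimates and lines 95% intervals. Cebpa at 2.17 and Cebpd at 0.44 are coloured as higher and Cebpg at -1.14 as lower, and the intervals of the Tribbles and ligase genes cross 0.

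The 3 arrays labelled Mx1Cre stood in the same order for all 7 genes. In each of the 7 genes replicate 1 was the lowest and replicate 2 the highest of the 3, although for Cebpd replicates 2 and 3 were nearly level (6.82 and 6.81). The same order was found in 23.6% of all genes, the commonest of the 6 possible orders. The flox/flox arrays gave 5 different orders over the 7 genes. The order was also found in 17 of 34 other bZIP genes, 13 of 27 myeloid C/EBP targets and 10 of 22 CHOP stress genes. Cell cycle partners of C/EBPα gave 6 of 15, COP1 ligase genes 4 of 9, and Trib3 and Cebpg 1 of 2. This order was looked for in the lists after it was seen in the 7 genes. Among marker lists it was found in 7 of 16 T, NK and innate lymphoid genes and 3 of 6 sort gate genes. Neutrophil markers gave 1 of 11, monocyte and macrophage markers 5 of 11, B lymphoid 4 of 9 and eosinophil 3 of 7. Mast cell and basophil markers gave 3 of 9, erythroid 2 of 7, stem and multipotent progenitor 2 of 10 and megakaryocyte 1 of 6. What sets Mx1Cre replicate 2 apart was not tested.

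**Figure D3:**
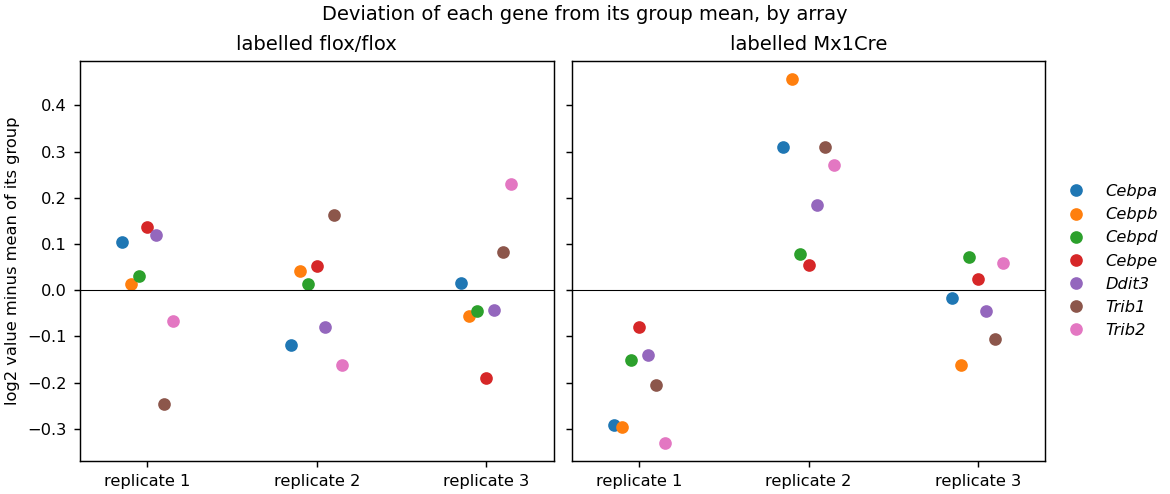
Each gene's log2 value minus the mean of its own group (y axis) on the 3 arrays of each label (x axis), 1 colour per gene. In the panel for Mx1Cre all 7 genes lie below 0 on replicate 1, from -0.33 for Trib2 to -0.08 for Cebpe, and all lie above 0 on replicate 2, up to 0.46 for Cebpb.

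Of the remaining family members, Cebpg fell and Trib3 did not pass. Cebpg, whose protein pairs with other C/EBP factors but has no activation domain of its own, read 11.21, 10.96 and 10.93 in the flox/flox arrays and 9.65, 10.04 and 9.99 in the Mx1Cre arrays, a fall of 1.14 ± 0.13 log2 units (SE, limma adjusted p = 0.000692). It lies next to Cebpa on chromosome 7 in the RefSeq gene order (GRCm38.p6), and no other measured protein-coding gene stands between them. The next measured genes on either side did not pass: Pepd and Chst8 beyond Cebpg differed by 0.01 and 0.03 log2 units, and Slc7a10, Lrp3 and Wdr88 on the far side of Cebpa by 0.04, -0.01 and -0.21. These neighbours were looked up after the values of Cebpa and Cebpg were known. Over all 7 genes 42 such neighbours were measured, of which 0 were higher and 3 lower, Cebpg included. Among all genes 2.63% were higher and 2.28% lower. Trib3, a stress-induced Tribbles gene and a target of CHOP and ATF4, differed by -0.02 ± 0.12 log2 units (SE, limma adjusted p = 0.972), with a sign that turned under several alternatives.

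**Figure D4:**
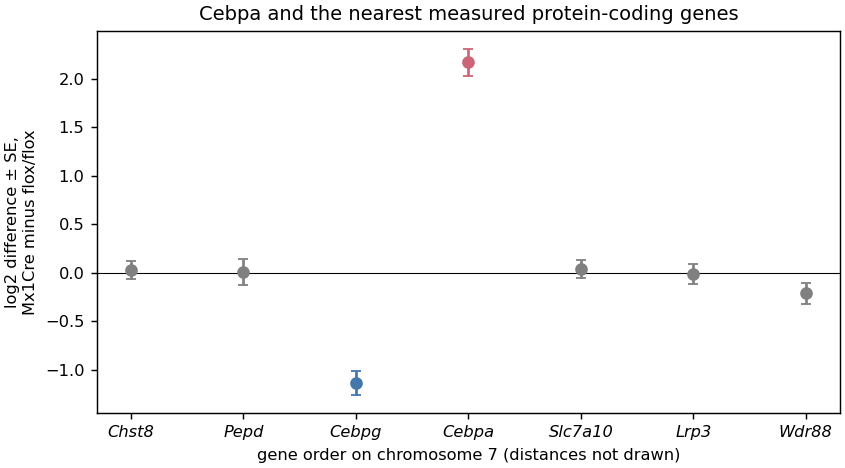
Difference between the arrays labelled Mx1Cre and flox/flox (y axis, log2 units, with limma's SE) for Cebpa and the 3 nearest measured protein-coding genes on each side, in gene order. Cebpa at 2.17 and its neighbour Cebpg at -1.14 lie on opposite sides of 0, and the other 5 genes lie between -0.21 and 0.04.

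None of the 9 measured genes of the COP1 ligase and its Tribbles-bound partners passed. Cop1, the ligase subunit that Tribbles proteins bind, read 9.67 in the flox/flox arrays and 9.55 in the Mx1Cre arrays and differed by -0.12 ± 0.087 log2 units (SE, limma adjusted p = 0.612). The scaffold and adaptor genes Det1, Dda1, Ddb1, Cul4a, Cul4b and Rbx1 differed by -0.23 to 0.17. Map2k1 and Map2k2, which encode the MEK kinases that Tribbles proteins also bind, differed by 0.22 and 0.004. At an unadjusted limma p under 0.05 the count was 0 too, where 16.4% of all genes passed. The list's median difference was -0.01 log2 units, beside -0.01 over all genes.

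The profile over the 6 arrays most like that of Cebpa belonged to Hk3, a hexokinase of myeloid cells, then to Csf1r, the receptor for M-CSF, and Prtn3, the granule protease proteinase 3. Likeness was the root-mean-square distance between log2 profiles, each centred on its own mean, among 9609 genes above the median level. The distances were 0.12, 0.19 and 0.20 log2 units, against a median of 1.10, and with all 6 arrays in 2 groups they reflect mainly a group difference of similar size. Hk3 read 5.96 and 8.08 in the flox/flox and Mx1Cre groups, Csf1r 5.73 and 7.60, and Prtn3 6.97 and 9.01 (log2 means, n = 3). For Cebpd the nearest profiles were Rogdi, Sdad1 and Nampt (0.021 to 0.047), for Ddit3 Rnf181, Zc4h2 and Wdr45 (0.033 to 0.039) and for Cebpb Tcn2, Borcs6 and Cdk5rap1 (0.064 to 0.078). Genes that change little lie close to many others on this measure.

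Of 27 measured genes known as targets of C/EBP factors in myeloid cells, 12 were higher in the Mx1Cre arrays, 0 were lower and 15 did not pass. The median difference was 0.48 log2 units against -0.01 over all genes, of which 2.63% rose. This list was chosen with earlier results of these data known, so its count is not independent of them. The count of 12 was 10 to 14 when 1 array was left out. At an unadjusted limma p under 0.05, 18 of the 27 passed, where 16.4% of all genes did. Ctsg, the primary granule protease cathepsin G, read 7.58, 8.67 and 7.91 in the flox/flox arrays and 11.54, 11.66 and 11.57 in the Mx1Cre arrays, 3.54 ± 0.22 log2 units higher (SE, limma adjusted p = 2.02e-05). S100a9, S100a8 and Cxcr2, the calprotectin subunits and a neutrophil chemokine receptor, were higher by 2.88, 2.58 and 2.79 log2 units (limma adjusted p at most 0.000253). The groups did not overlap in any of these 4 genes. Among those that did not pass were, outside the rule for naming genes, Gfi1, Klf5 and Id1, with 0.18, 0.004 and 0.09 log2 units. Spi1, which encodes PU.1, did not pass at 0.50 (limma adjusted p = 0.0502). Lyz2, Camp, Mmp8 and Il6ra did not pass either, at 0.66, 0.43, 0.40 and 0.37 (limma adjusted p 0.0620 to 0.148). Itgam and Mmp9 went the other way, at -0.21 and -0.01.

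Marker genes of several cell types differed between the same arrays. Their lists, like the others, were chosen with earlier results of these data known, so the counts are not independent of these values. Over all genes 2.63% were higher and 2.28% lower. Of 11 monocyte and macrophage markers 10 were higher, and their summed level on the linear scale ran from 1039 to 1183 in the flox/flox arrays and from 4984 to 5694 in the Mx1Cre arrays. Of 11 neutrophil markers 5 were higher and 6 did not pass, among them Ly6g and Mmp9 at -0.03 and -0.01 log2 units. The sums over the 11 were 533 to 588 against 1664 to 2419. Cxcr2, S100a9 and S100a8, which rose from 7.07 to 9.85, 5.74 to 8.62 and 4.94 to 7.52, carried most of that rise. Ngp and Lcn2, the remaining called genes, rose by 0.90 and 0.59 log2 units. In the flox/flox arrays 6 of those 11 were below the lower quartile of levels, and in the Mx1Cre arrays 3. Of 16 T, NK and innate lymphoid markers 7 were lower, with sums of 4601 to 5681 against 1184 to 1515. Gzmb and Tox, which fell from 11.17 to 6.71 and from 10.40 to 7.53, carried most of that drop, and the sums of the other 14 genes were 1405 to 1484 against 951 to 1189. Cd3e, Cd3d, Cd4, Cd8a and Klrd1 were among the 9 that did not pass, at -0.003, -0.04, 0.04, 0.23 and 0.22 log2 units. The median difference of the 16 was -0.32 log2 units with 0 higher, and the 7 lower genes are not all named here. An unadjusted limma p under 0.05 was reached by 8 of the 16. Of 10 stem and multipotent progenitor markers 3 were higher, Flt3 by 2.15, Cd34 by 1.01 and Hlf by 0.92 log2 units (limma adjusted p at most 0.00469), and Angpt1 was lower, at -0.58. Of 7 eosinophil markers 0 passed with limma (1 at an unadjusted p under 0.05). Of 7 erythroid markers 2 were lower (3 at an unadjusted limma p under 0.05). Of 6 megakaryocyte markers 1 was lower (3 at the unadjusted threshold). Of 9 B lymphoid markers 0 passed (3 at an unadjusted limma p under 0.05, which 16.4% of all genes met). Mast cell and basophil markers went both ways, with 3 of 9 higher and 2 lower. Mcpt8, Hdc and Ms4a2 were higher by 2.77, 1.54 and 1.28 log2 units, and Fcer1a and Cpa3 were lower, at -1.75 and -0.81. Several of these markers are themselves in the target list, among them Csf1r and all 5 neutrophil markers that were called. The neutrophil count is therefore not separate from the target count. The part of cell composition in the values of Cebpa and its targets was not tested. In sorted bulk cells, fewer cells of a type and less RNA per cell cannot be told apart.

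**Figure D5:**
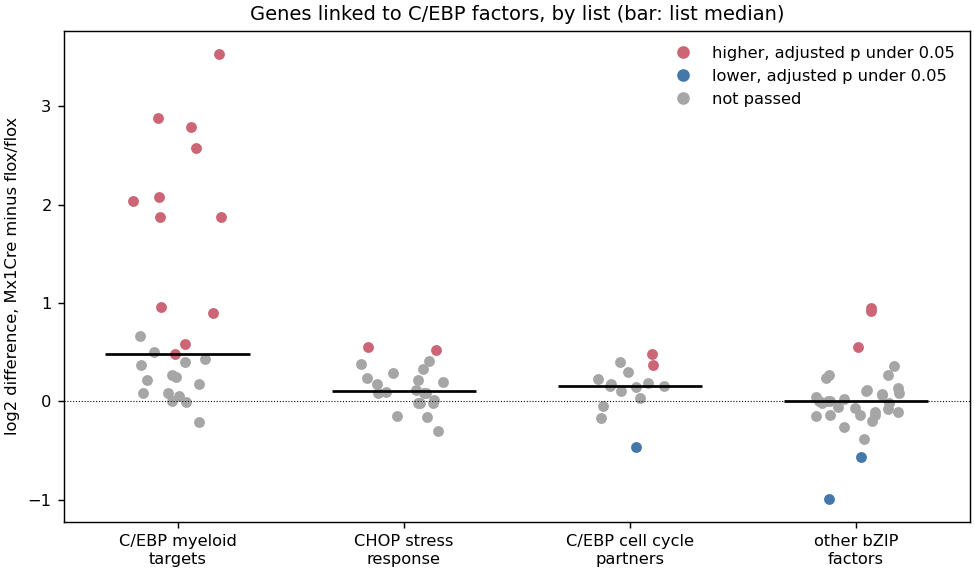
Difference between the arrays labelled Mx1Cre and flox/flox (y axis, log2 units) for each measured gene of 4 lists linked to C/EBP factors (x axis); colours mark genes that passed and bars are list medians. The median of the C/EBP myeloid targets is 0.48, with 12 of 27 genes higher, and the medians of the other lists lie between 0.003 and 0.16. The lists were chosen with earlier results of these data known.

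Over all genes 4.91% were called, against 9.1% of the 22 genes of the stress response around CHOP. Of these 22, 2 rose and 0 fell, with a median of 0.10 log2 units. They were Atf6, a membrane-bound sensor of unfolded proteins (0.55 ± 0.11, SE, limma adjusted p = 0.0220), and Asns, asparagine synthetase (0.52 ± 0.12, SE, limma adjusted p = 0.0417). Atf4, the factor upstream of Ddit3, did not pass, at 0.09 log2 units. Nor did Atf3 and Chac1, which like Ddit3 are induced by Atf4, at -0.01 and 0.10. Larger differences that did not pass were 0.41, 0.38 and 0.33 for Ern1, Ero1a and Ero1b and -0.30 for Bcl2l11. All of these were named outside the rule. An unadjusted limma p under 0.05 was reached by 8 of the 22, against 16.4% of all genes. Atf6 lost its call without flox/flox replicates 1 and 2 and without Mx1Cre replicates 1 and 3 (limma adjusted p 0.0535 to 0.0750). Asns lost it without flox/flox replicates 1 and 2 and without Mx1Cre replicates 2 and 3 (0.124 to 0.141), and also with median centring (0.0586). The count of 2 fell to 0 without flox/flox replicate 1, flox/flox replicate 2 or Mx1Cre replicate 3, and to 1 without Mx1Cre replicate 1 or 2.

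Of 15 genes of the cell cycle machinery with which C/EBPα interacts 2 rose, 1 fell and 12 did not pass, with a median of 0.16 log2 units. The share called was 20%, against 4.91% of all genes. An unadjusted limma p under 0.05 was reached by 6 of the 15, against 16.4% of all genes. Myc, the growth-promoting factor that C/EBPα represses, read 11.22 ± 0.24 and 11.70 ± 0.045 (SD, n = 3 each) and was higher by 0.48 log2 units (limma adjusted p = 0.0487). E2f1, a driver of S phase, was higher by 0.37 (limma adjusted p = 0.0412) and Rbl2, the pocket protein p130 of quiescent cells, was lower, with a difference of -0.47 ± 0.096 (SE, limma adjusted p = 0.0220). These calls were fragile. E2f1 lost its call whichever array was left out (0.0590 to 0.146), Myc in every case but flox/flox replicate 1 (0.0816 to 0.142), and Rbl2 in every case but Mx1Cre replicate 3 (0.0524 to 0.0776). Myc also lost its call with cyclic loess (0.0526) and median centring (0.0581), and Myc and E2f1 with the replicate block (0.0560 and 0.0556). The count of 3 became 0 without flox/flox replicates 2 or 3 or Mx1Cre replicates 1 or 2, and 1 without flox/flox replicate 1 or Mx1Cre replicate 3. With the replicate number as a block it was 1.

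Of 34 other bZIP genes, the wider class of leucine zipper factors, 3 rose and 2 fell, with a median of 0.003 log2 units. That was 14.7% called, against 4.91% of all genes. An unadjusted limma p under 0.05 was reached by 11 of the 34, against 16.4% of all genes. Crem, a cAMP-responsive factor, changed by -0.995 ± 0.092 log2 units (SE, limma adjusted p = 0.000255), from 7.67, 7.84 and 7.76 to 6.68, 6.85 and 6.75. Hlf, a stem cell factor of the PAR family, rose by 0.92 ± 0.14 (SE, limma adjusted p = 0.00469), from 7.65, 8.29 and 8.04 to 8.93, 8.91 and 8.89. Crem and Hlf kept their calls whichever array was left out, and with all probe sets fitted Crem passed (0.0117) and Hlf did not (0.0689). Nfil3, a repressor needed for innate lymphoid cells, rose by 0.95 ± 0.22 (SE, limma adjusted p = 0.0370), and Nfe2, an erythroid and megakaryocytic factor, fell by 0.57 ± 0.14 (SE, limma adjusted p = 0.0410). Nfil3 lost its call without flox/flox replicate 3 and without each Mx1Cre array (0.0734 to 0.106), and Nfe2 without each flox/flox array and without Mx1Cre replicates 1 and 3 (0.0726 to 0.142) and with median centring (0.0542). The count of 5 became 3 without any flox/flox array and 2 without Mx1Cre replicate 3. Atf6 was the remaining gene that rose. The AP-1 genes of the Fos and Jun families, named outside the rule, did not pass. Fosl2, Fos, Fosb and Fosl1 differed by 0.36, 0.07, -0.06 and -0.08 log2 units. Jun, Junb and Jund differed by 0.05, -0.14 and -0.38, with Jund near the threshold (limma adjusted p = 0.0514). Jun varied widely over the Mx1Cre arrays, at 8.06, 6.67 and 6.42, so its small difference does not show an unchanged level. With all probe sets fitted, Nfil3, Nfe2, Atf6, Asns, Myc, E2f1 and Rbl2 also did not pass (limma adjusted p 0.115 to 0.213).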

How the data were processed

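The authors deposited log2 values for each probe set, made with RMA and affy per the submitters' processing notes, with versions and chip definition not given in the sources used here. RMA quantile normalizes the arrays and draws dim probe sets towards a floor, which makes folds of dim genes smaller. Array medians lay between 6.43 and 6.55, and the number of arrays limits the precision. Scanner files, slides and scan dates were not analysed here, so background correction was not varied and no batch was used.

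Of 34760 probe sets, 21640 had 1 gene symbol in the platform annotation, 1321 several and 11799 none. By Entrez number 21553 of the 21640 matched the RefSeq table, which changed 0 symbols. The set with the highest mean stood for each of 19937 genes. Differences, as labelled Mx1Cre minus flox/flox, came from limma 3.58.1 under R 4.3.3 (lmFit, eBayes, Benjamini-Hochberg over all genes, threshold 0.05), with no covariate. In a simulation over 19937 genes, 67, 67 and 66 were changed by 0.5, 1 and 2 log2 units, and limma recovered 34.3%, 83.6% and 100%. It called 147 genes there, against 979 in the data, so recovery in the data may differ. Replicate numbers were not treated as pairs.

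The members and lists were chosen with earlier results of these data known. Named genes are the 7 members, all of the 2 smallest lists, up to 4 higher and 4 lower called genes of each other list, and the 3 nearest profiles to each of 4 members. The alternatives were the replicate block, leaving out each array, cyclic loess, median centring, 2 filters on dim genes, the mean of probe sets, all probe sets fitted, a trend with robust prior, and array weights. The all-probe-set count for lists was added after seeing the data. Promoter sequences are from RefSeq, GRCm38.p6.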

Additional observations from a re-analysis of the deposited data

How the results depend on the processing

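Cebpa passed under all 15 alternatives, with differences of 2.02 to 2.32 log2 units and limma adjusted p from 3.81e-06 to 0.00514. Cebpe and Ddit3 kept their direction and passed under none of their 15. Cebpd kept its direction under all 14 of its alternatives and passed under 8, with differences of 0.40 to 0.51 when 1 array was left out, and at 0.44 did not pass with all probe sets fitted (adjusted p = 0.127). Cebpb ran from -0.443 to -0.0671 when 1 array was left out. Trib1 ran from -0.184 to 0.0732 and Trib2 from -0.224 to 0.0759 in the same setting, so their direction is not settled. Among other genes named, Trib3 ran from -0.132 to 0.0514, Det1 from -0.0551 to 0.193, Map2k2 from -0.0631 to 0.104 and Rbx1 from -0.0534 to 0.0108 without 1 array. Trib3 also turned with cyclic loess (0.00098) and array weights (0.0022), and Map2k2 with cyclic loess (-0.0058).

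The number of genes called was 979, and 538 to 785 without 1 array. Leaving out flox/flox replicates 1 or 3 gave 541 or 547, and leaving out Mx1Cre replicates 2 or 3 gave 636 or 538. It was 244 with all probe sets fitted, which changes both the number of features adjusted over and the moderated spread (the SE of Cebpa went from 0.142 to 0.160). Which of these lowers the count was not tested. In that setting the lists of myeloid targets, other bZIP factors, CHOP stress response and cell cycle partners had 8, 1, 0 and 0 genes called. Without 1 array they had 10 to 14, 2 to 4, 0 to 2 and 0 to 1. Fewer arrays also lower the power.

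Same-numbered arrays of the groups deviated together only weakly, with correlations across genes of 0.188, 0.0515 and 0.174 for replicates 1, 2 and 3. The values for replicates 1 and 3 were the highest of all pairings, and unlike-numbered arrays ran from -0.245 to 0.124. Mx1Cre replicate 2 correlated best with flox/flox replicate 3 (0.124). The labels state no pairing, so the numbers were not taken as pairs, and whether they mark pairs is not settled. With the replicate block 1089 genes and 1 cell cycle partner gene were called. It changed no call among the 7 genes.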
